A study of Rattus norvegicus with 8 samples.

Results

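The genes described here are 9 complement genes of the rat: the 3 chains of C1q (C1qa, C1qb, C1qc), the proteases C1r, C1s, C2 and factor B (Cfb), the central component C3, and the C5a receptor C5ar1. They were chosen by name, as every probe whose gene symbol on the array equals 1 of these 9 symbols. The rule itself uses no measured value, but the list was drawn up with earlier results of these data known. They make up 9 of the 18171 genes tested and are read by 10 probes, C2 by 2 of them. The animals were female Wistar rats, 14 weeks old, and RNA of their colon was hybridised to Agilent 1-colour arrays in 4 groups of 2 arrays. ALA colitis rats ate an alpha-linolenic acid diet (ALA, a plant n-3 fatty acid). Fish oil colitis rats ate fish oil, a source of long-chain n-3 fatty acids. The n-6 colitis rats and the healthy rats both ate sunflower oil. Every diet lasted 8 weeks. For colitis, 3 groups were given dextran sulfate sodium (DSS) at 5% over 7 days, which damages the epithelium of the colon, and the healthy group was given none.

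RNA of 6 rats was pooled, out of 10 rats in each colitis group and 6 in the healthy group. Whether both arrays of a group carry 1 pool or 2 is not in the labels. With 6 healthy rats and 6 rats in a pool, both healthy arrays carry RNA of the same 6 rats. In a colitis group, 2 pools of 6 out of 10 rats would share animals. The tests therefore see array-to-array spread, which may be technical and is not the spread between independent sets of rats. Having 2 arrays a group also limits the precision. All 8 arrays lay on 1 slide, where each group had its own block of positions, so slide position and group cannot be told apart. The tissue is whole colon. All 8 colon epithelium markers were measured, and of 4 liver markers Alb and Fgb were below the filter on signal while Apoa1 and Ttr were tested. In such bulk RNA, more cells of a type and more RNA per cell cannot be told apart.

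Complement is a cascade of plasma and tissue proteins that marks microbes and damaged cells for removal. In the classical pathway C1q binds antibody or injured surfaces, C1r and C1s are cut in turn, and C1s then cleaves C4 and C2. In the alternative pathway factor B joins C3b to form the enzyme that cleaves further C3, and both pathways lead to C5 and its fragment C5a, which attracts neutrophils through C5ar1. C1q is made mainly by macrophages, much C3 and factor B by liver and by epithelium under inflammation, and regulators such as CD55 and C1 inhibitor hold the cascade in check.

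The level of a gene is what its probe of 60 bases captured, so the probes of C1q, C3 and C2 that carry the results are shown first. C1qa, C1qb and C1qc lie beside each other on the minus strand of chromosome 5 (rn4 build, as the array files give it), with probes at chr5:155662578-155662637, chr5:155647530-155647589 and chr5:155656638-155656697. C1r and C1s are neighbours on chromosome 4, on the plus and the minus strand. C2 and Cfb are neighbours on the plus strand of chromosome 20, with C2 probes at chr20:4071504-4071563 and chr20:4071119-4071178 and the Cfb probe at chr20:4077743-4077802. The C3 probe has a place on the unassigned sequence of that build, and the files give none for C5ar1. No rn4 annotation was used here, so exon or UTR is not assigned.
C1qa probe: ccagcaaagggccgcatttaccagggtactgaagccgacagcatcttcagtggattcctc
C1qc probe: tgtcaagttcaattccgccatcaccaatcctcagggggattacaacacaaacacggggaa
C3 probe: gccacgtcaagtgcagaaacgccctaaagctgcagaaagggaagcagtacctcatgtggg
C2 probe used: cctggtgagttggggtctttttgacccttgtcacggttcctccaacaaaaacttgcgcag
C2 second probe: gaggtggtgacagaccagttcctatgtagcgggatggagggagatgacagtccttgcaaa

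C1qa, C1qb and C1r, whose levels ran alike over the arrays, and C3, whose levels did not follow theirs, are set side by side in their upstream sequence. RefSeq's GRCr8 table held promoters for 4 of the 9 members. The 250 bases before the gene start are printed 5′ to 3′ on the gene's strand: C1qa at chr5:154419934-154420183 (minus), C1qb at chr5:154407828-154408077 (minus), C1r at chr4:159098763-159099012 (plus) and C3 at chr9:2201340-2201589 (minus). Capitals mark matches, on either strand, to 5 motifs: STAT (TTCNNNGAA), C/EBP (TTGCNNAA), PU.1 (GAGGAA), and the interferon response element and NF-kB, given by name.
C1qa promoter: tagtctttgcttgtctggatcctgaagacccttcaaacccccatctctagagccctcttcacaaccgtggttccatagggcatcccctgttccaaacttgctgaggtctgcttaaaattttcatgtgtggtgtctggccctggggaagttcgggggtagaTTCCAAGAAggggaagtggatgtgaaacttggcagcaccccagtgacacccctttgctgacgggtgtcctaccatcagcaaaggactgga
C1qb promoter: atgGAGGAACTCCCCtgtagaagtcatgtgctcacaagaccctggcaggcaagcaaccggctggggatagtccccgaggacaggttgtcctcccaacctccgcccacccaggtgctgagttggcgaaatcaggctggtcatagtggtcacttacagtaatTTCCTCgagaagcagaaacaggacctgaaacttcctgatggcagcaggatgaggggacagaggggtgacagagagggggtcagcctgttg
C1r promoter: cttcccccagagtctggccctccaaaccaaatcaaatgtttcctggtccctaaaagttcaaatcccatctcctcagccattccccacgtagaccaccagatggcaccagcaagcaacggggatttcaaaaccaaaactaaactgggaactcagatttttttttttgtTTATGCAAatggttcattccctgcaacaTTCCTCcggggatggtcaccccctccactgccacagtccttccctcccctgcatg
C3 promoter: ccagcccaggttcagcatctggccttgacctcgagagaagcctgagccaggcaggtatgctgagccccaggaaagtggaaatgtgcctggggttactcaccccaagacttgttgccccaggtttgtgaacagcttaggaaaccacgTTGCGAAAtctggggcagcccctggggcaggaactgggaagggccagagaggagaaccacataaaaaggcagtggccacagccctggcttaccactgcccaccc
C1qa held a STAT match, which 7.67% of the 33469 rat promoters in the table also hold. C1qb held 2 PU.1 matches and an NF-kB match, which overlaps 1 of them. PU.1 was also matched in C1r, and occurs in 23.3% of all promoters, against 6.33% for NF-kB. C1r and C3 each held a C/EBP match, found in 9.22% of promoters. The interferon element was in 0 of the 4, and in 3.41% of all. A match describes the letters and says nothing of binding.

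Across the 4 groups, 8 of the 9 genes had their lowest mean in healthy colon, C2 being the exception with its lowest mean in ALA colitis. C1qa, C1qb, C1r, C1s and C5ar1 were highest in n-6 colitis. C2, C3 and Cfb were highest in fish oil colitis, and C1qc in ALA colitis. A level is given as log2 of the signal over the array's own 75th percentile. Probes differ in brightness, so a level is compared between groups and not between genes. Every member probe was well above background on all 8 arrays and none was saturated.

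**Figure D1:**
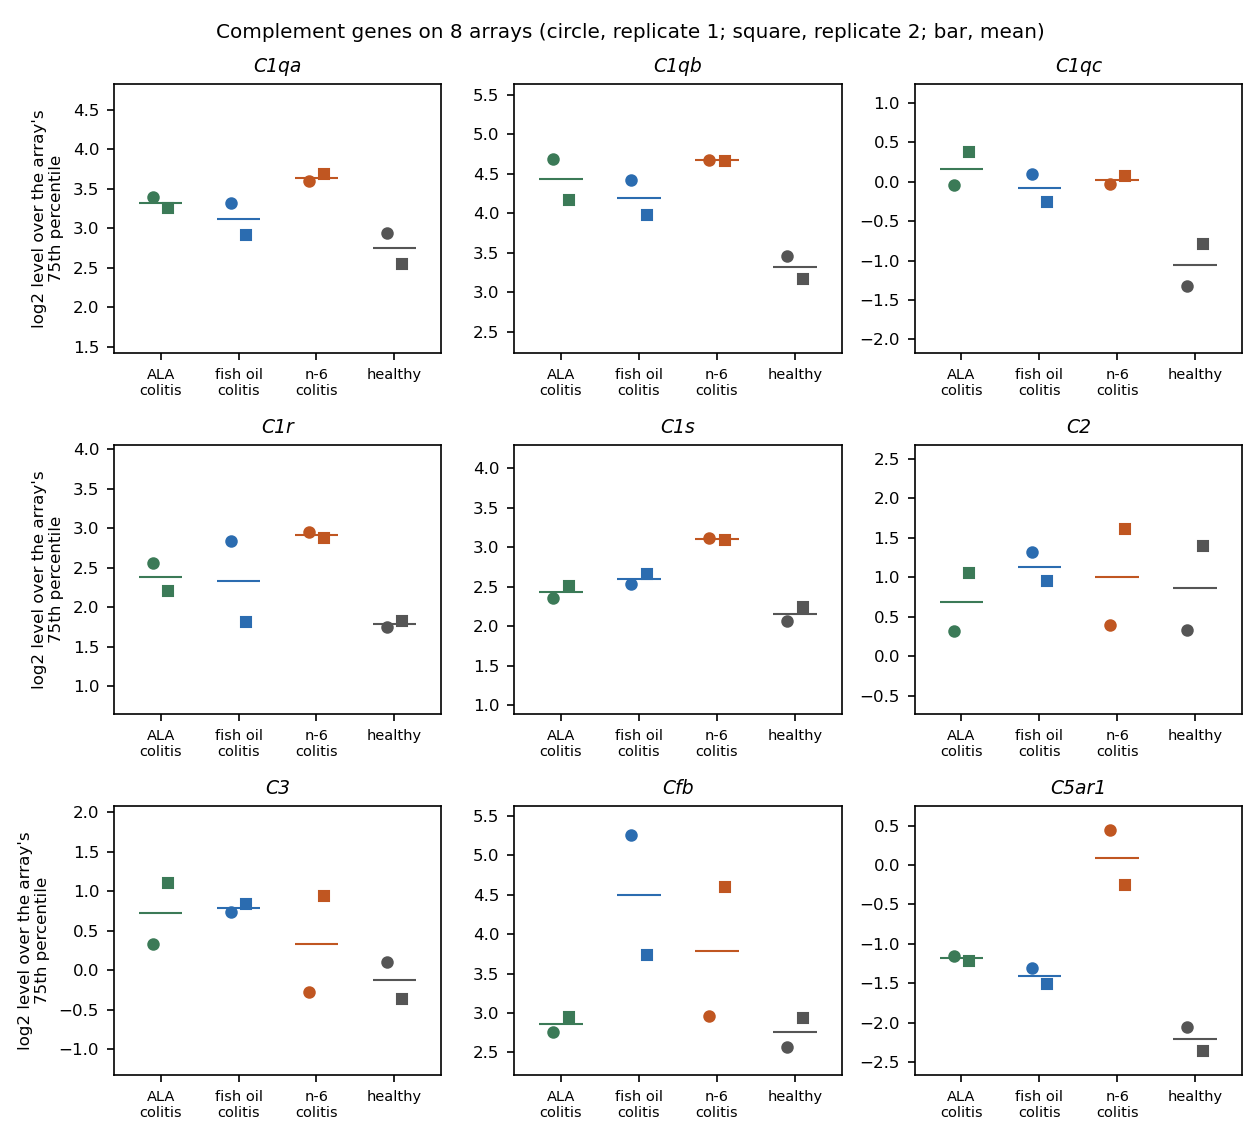
Level of each of the 9 complement genes on each array, as log2 signal over the array's 75th percentile, by group, with replicate 1 as a circle, replicate 2 as a square and the group mean as a bar; every panel spans the same number of log2 units. The C1q chains, C1r, C1s and C5ar1 sit lowest in healthy colon on nearly all arrays. The arrays of C2, C3 and Cfb lie far apart in at least 1 group, as do those of C1r in fish oil colitis.

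C5ar1, the receptor for C5a on neutrophils and macrophages, showed the widest range of the 9, spanning 2.80 log2 units over the 8 arrays. Its levels were -1.15 and -1.22 in ALA colitis, -1.30 and -1.50 in fish oil colitis, 0.44 and -0.26 in n-6 colitis, and -2.05 and -2.36 in healthy colon. The n-6 arrays stood above both n-3 diet groups, and those stood above the healthy arrays, with no overlap between any pair of groups. Its probe was dim, at 46.9 to 547 signal units before scaling. In n-6 colitis C5ar1 was 4.91-fold higher than in healthy colon (2.30 on the log2 scale, SE 0.34, 95% interval 1.49 to 3.10). With limma and Benjamini-Hochberg adjustment over all 18171 genes its adjusted p = 0.101, which misses 0.05. The difference ran from 1.69 to 2.44 under other processing settings, and from 1.95 to 2.64 with 1 array left out. Against n-6 colitis C5ar1 was lower by 1.27 in ALA colitis (95% interval -2.08 to -0.47, limma adjusted p = 0.836) and by 1.49 in fish oil colitis (-2.30 to -0.69, adjusted p = 0.409). ALA and fish oil colitis differed by 0.22 (95% interval -0.58 to 1.02). Against healthy colon the difference was 1.02 in ALA colitis (0.22 to 1.83, limma adjusted p = 0.731) and 0.80 in fish oil colitis (-0.00102 to 1.61, adjusted p = 0.994).

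C1qa encodes the A chain of C1q, the recognition unit of the classical pathway. Its levels were 3.39 and 3.26 in ALA colitis, 3.32 and 2.91 in fish oil colitis, 3.59 and 3.69 in n-6 colitis, and 2.94 and 2.55 in healthy colon. The n-6 arrays were the highest and did not overlap with any other group, while fish oil replicate 2 was level with healthy replicate 1. C1qb, the B chain, had levels of 4.69 and 4.17 in ALA colitis, 4.43 and 3.98 in fish oil colitis, 4.67 and 4.67 in n-6 colitis, and 3.46 and 3.18 in healthy colon. Every colitis array exceeded both healthy arrays, and ALA replicate 1 reached the n-6 arrays. C1qc, the C chain, had levels of -0.05 and 0.38 in ALA colitis, 0.09 and -0.26 in fish oil colitis, -0.03 and 0.07 in n-6 colitis, and -1.32 and -0.79 in healthy colon. The 3 colitis groups overlapped with each other in C1qc and were all above healthy colon.

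In n-6 colitis against healthy colon, C1qb was 2.56-fold higher (log2 difference 1.36, SE 0.33, limma adjusted p = 0.184), C1qc 2.10-fold (1.07, SE 0.34, adjusted p = 0.243) and C1qa 1.86-fold (0.90, SE 0.31, adjusted p = 0.272). Their 95% intervals were 0.57 to 2.14, 0.28 to 1.87 and 0.17 to 1.63. None of the chains was called between an n-3 diet and the n-6 diet. ALA colitis stood -0.32, -0.24 and 0.15 from n-6 colitis in C1qa, C1qb and C1qc, and the last of these was -0.05 with each array centred on its median. Fish oil colitis stood -0.52, -0.47 and -0.10 from n-6 colitis. All 6 of these 95% intervals include 0, and they reach from -1.25 to 0.94. Against healthy colon, C1qb was 1.11 higher in ALA colitis and 0.89 higher in fish oil colitis (95% intervals 0.33 to 1.90 and 0.10 to 1.67, limma adjusted p = 0.731 and adjusted p = 0.994). C1qc was 1.22 higher in ALA colitis and 0.97 higher in fish oil colitis (0.43 to 2.01 and 0.18 to 1.77, limma adjusted p = 0.681 and adjusted p = 0.994).

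C1r and C1s are the serine proteases bound to C1q. C1r, read by 10 spots on each array, had levels of 2.57 and 2.20 in ALA colitis, 2.84 and 1.81 in fish oil colitis, 2.95 and 2.87 in n-6 colitis, and 1.75 and 1.83 in healthy colon. Fish oil replicate 1 lay near the n-6 arrays and fish oil replicate 2 within the healthy range. C1r was 2.18-fold higher in n-6 colitis than in healthy colon (1.12, 95% interval 0.19 to 2.06, limma adjusted p = 0.279). It stood -0.53 from n-6 colitis in ALA colitis (-1.46 to 0.41) and -0.58 in fish oil colitis (-1.52 to 0.35). Without fish oil replicate 1 its fish oil difference was -1.10, and without replicate 2 it was -0.07. C1s had levels of 2.36 and 2.50 in ALA colitis, 2.54 and 2.66 in fish oil colitis, 3.12 and 3.08 in n-6 colitis, and 2.06 and 2.24 in healthy colon. The 4 groups of C1s did not overlap, with n-6 highest and healthy lowest. C1s was 1.93-fold higher in n-6 colitis than in healthy colon (0.95, 95% interval 0.30 to 1.60, limma adjusted p = 0.217). Against n-6 colitis it was lower by 0.67 in ALA colitis (-1.32 to -0.02, adjusted p = 0.855), and stood -0.50 from it in fish oil colitis (-1.15 to 0.15).

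C2, the protease that C1s cleaves, showed no order by group. Its levels were 0.32 and 1.05 in ALA colitis, 1.32 and 0.95 in fish oil colitis, 0.39 and 1.62 in n-6 colitis, and 0.33 and 1.39 in healthy colon. In ALA colitis, n-6 colitis and healthy colon replicate 2 was the higher array, so each group overlapped with every other. The n-6 difference from healthy colon was 0.14 (95% interval -1.17 to 1.45) for the probe used and -0.28 for the second probe, so the 2 probes disagree in sign.

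C3 is the component on which all pathways converge. It had levels of 0.33 and 1.11 in ALA colitis, 0.73 and 0.84 in fish oil colitis, -0.27 and 0.94 in n-6 colitis, and 0.11 and -0.36 in healthy colon. The n-6 arrays lay far apart, replicate 1 within the healthy range and replicate 2 beside the ALA and fish oil arrays. The n-6 difference from healthy colon was 0.45 (95% interval -0.69 to 1.60), and was -0.15 without n-6 replicate 2 and 1.06 without replicate 1. ALA and fish oil colitis were each above healthy colon on every array, by 0.84 (95% interval -0.30 to 1.99) and 0.91 (-0.23 to 2.06). Their differences from n-6 colitis were 0.39 (-0.76 to 1.54) and 0.46 (-0.69 to 1.60), and -0.22 and -0.15 without n-6 replicate 1.

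Factor B, the protease of the alternative pathway, showed the widest gaps of the 9 members between the 2 arrays of a group, in n-6 and fish oil colitis. Cfb had levels of 2.76 and 2.95 in ALA colitis, 5.26 and 3.73 in fish oil colitis, 2.96 and 4.60 in n-6 colitis, and 2.57 and 2.94 in healthy colon. Fish oil replicate 1 and n-6 replicate 2 stood far above the rest, while both ALA arrays lay at the healthy level. The SD between the 2 arrays was 1.08 in fish oil and 1.16 in n-6 colitis, against 0.26 in healthy colon. Cfb was 3.33-fold higher in fish oil colitis than in healthy colon (1.74, 95% interval 0.17 to 3.30, limma adjusted p = 0.994) and lower by 1.64 in ALA colitis than in fish oil colitis (-3.20 to -0.07, adjusted p = 0.504). Without fish oil replicate 1 these differences were 0.97 and -0.87. The n-6 difference from healthy colon was 1.02 (95% interval -0.54 to 2.59), and 0.21 without n-6 replicate 2. Fish oil replicate 1 and n-6 replicate 2 are also the dimmest arrays, with 75th percentiles of 115 and 239 signal units against 274 to 440 on the other 6. Before scaling, Cfb gave 4413 units on the first of these arrays and 5785 on the second, the highest of the 8, and 1814 to 4301 on the others. The part of array brightness in the scaled levels was not tested.

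No member passed the adjusted test in any of the 7 comparisons made (the 6 pairs of groups, and all 3 colitis groups against healthy colon). In n-6 colitis against healthy colon 0 of 9 passed, against 7 of 18171 genes (0.0385%). At an unadjusted limma p under 0.05, 6 of 9 were called, all higher, against 6.59% of all genes called higher. The arrays did not overlap for 7 of 9, all higher, against 23.8% of genes higher without overlap. The median difference of the members was 1.02 and that of all genes 0.03. The 6 called at that level became 3 without healthy replicate 1, 3 without n-6 replicate 2 and 4 without healthy replicate 2.

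**Figure D2:**
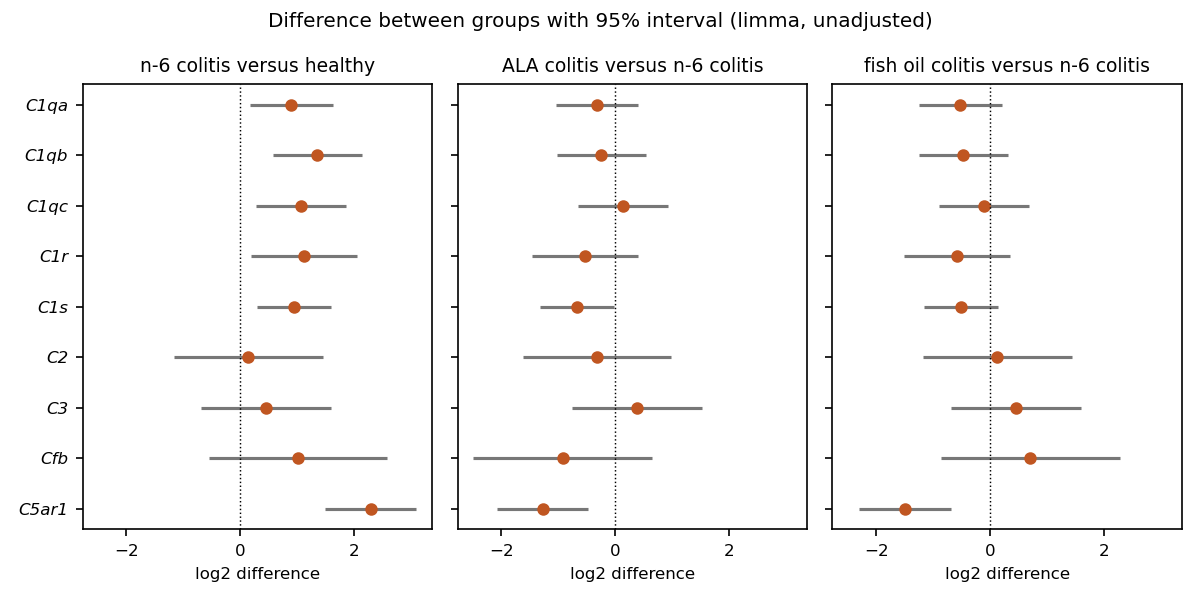
Log2 difference (points) with its unadjusted 95% interval from limma (lines) for each member in n-6 colitis versus healthy, ALA colitis versus n-6 colitis and fish oil colitis versus n-6 colitis. In the first panel 6 intervals lie above 0; in the others only those of C5ar1, and of C1s for ALA, lie below 0.

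In ALA colitis against n-6 colitis 2 of 9 members, C5ar1 and C1s, had an unadjusted limma p under 0.05, both lower, against 2.61% of genes called lower. The arrays of 5 of 9 did not overlap, all lower, against 13.1% of genes lower without overlap. The count of 2 was 1 when any single array other than n-6 replicate 1 was left out, and no member passed the adjusted test, against 0.0275% of genes. In fish oil colitis against n-6 colitis 0 of 9 passed the adjusted test, against 0.0385% of genes, and C5ar1 alone was lower at an unadjusted p under 0.05, against 6.00% of genes called lower. In 5 of 9 members the arrays did not overlap, all lower, against 23.6% of genes lower without overlap. Without fish oil replicate 1 the count was 2, C1r being added. The members' median was -0.32 in ALA colitis and -0.47 in fish oil colitis, beside 0.07 and 0.01 over all genes. Both comparisons share the n-6 arrays.

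Against healthy colon, 3 of 9 members (C1qb, C1qc and C5ar1) had an unadjusted limma p under 0.05 in ALA colitis, all higher, against 4.37% of genes called higher, and 7 of 9 were higher without overlap, against 22.5% of genes. In fish oil colitis 3 of 9 (C1qb, C1qc and Cfb) did, all higher, against 1.77% of genes called higher, and 6 of 9 were higher without overlap, against 18.3% of genes. With the 3 colitis groups together, 5 of 9 did (C1qa, C1qb, C1qc, C1s and C5ar1), all higher, against 3.98% of genes called higher. In that comparison C1qb was 1.12 higher (SE 0.27, limma adjusted p = 0.377), C1qc 1.09 higher (SE 0.27, adjusted p = 0.409) and C5ar1 1.37 higher (SE 0.28, adjusted p = 0.307). The arrays of 4 of 9 did not overlap, all higher, against 5.09% of genes. The count of 5 was 2 without either healthy array and 3 without either ALA array or without fish oil replicate 1. For ALA colitis against healthy colon the count of 3 was 1 without healthy replicate 2 or either ALA array. For fish oil colitis it was 0 without healthy replicate 1 or fish oil replicate 1, and 1 without healthy replicate 2. Between ALA and fish oil colitis only Cfb was called, lower in ALA colitis, against 2.99% of genes called lower, and it was not called without either healthy array, either ALA array or fish oil replicate 1. In these 4 comparisons 0 of 18171 genes passed the adjusted test (0%), though 708 to 1745 had an unadjusted limma p under 0.05. The comparisons with healthy colon share its arrays.

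C1q was then set against C3 and factor B through the difference of their changes. The mean of the 3 C1q chains was 2.68 and 2.60 in ALA colitis, 2.61 and 2.21 in fish oil colitis, 2.75 and 2.81 in n-6 colitis, and 1.69 and 1.64 in healthy colon. It did not overlap between colitis and healthy colon on any array. The change of C1q in n-6 colitis against healthy colon was 1.11, and exceeded that of C3 by 0.65 and that of Cfb by 0.08. In ALA colitis against n-6 colitis the C1q difference was -0.14, a gap of -0.53 from C3 and of 0.79 from Cfb. In fish oil colitis it was -0.37, a gap of -0.82 from C3 and of -1.08 from Cfb. The exact two-sided permutation p was 0.667 for 5 of these 6 gaps and 1 for the other, and 4 arrays cannot give less than 0.333. With the 3 colitis groups together the differences were 0.20 from C3 and -0.01 from Cfb (exact p = 0.857 and 0.929, the smallest possible being 0.0714). All 8 tests had an adjusted p of 1, so C1q was not shown to change differently from C3 or factor B.

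**Figure D3:**
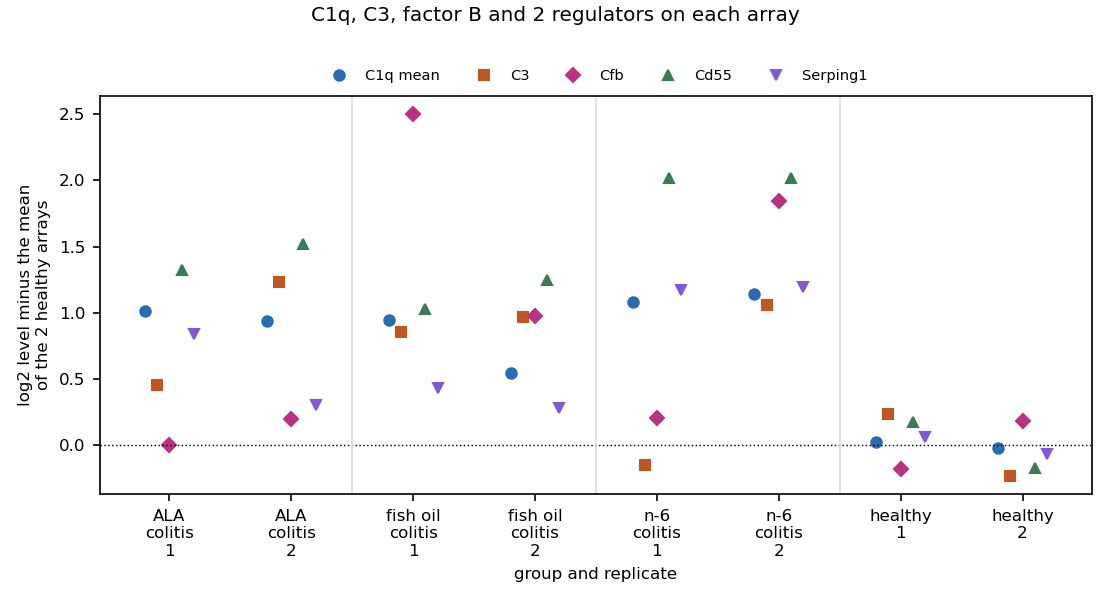
Log2 level on each array minus the mean of the 2 healthy arrays, for the mean of the C1q chains, C3, Cfb and the regulators Cd55 and Serping1. C1q, a mean of 3 genes, lies between 0.54 and 1.14 on all 6 colitis arrays. Cfb ranges from 0.00 to 2.50 and C3 from -0.15 to 1.23, but these are single genes and averaging narrows the range of C1q.

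As a description over the 8 arrays, which share their groups, the C1q chains, C1r, C1s and C5ar1 had pairwise Pearson correlations of 0.618 to 0.94 (15 pairs). Those 6 genes had correlations of -0.104 to 0.588 with C2, C3 and Cfb (18 pairs), and the last 3 had 0.404 to 0.683 among themselves. This grouping was drawn after the values were seen. Among 6072 named genes of sufficient spread, the 5 most like the C1q mean were Htra4, Cxcl3, Dkkl1, Kif26b and Dydc1 (r = 0.956 to 0.972). Those most like C3 were Rhpn1, Zg16, Mcpt4, Rundc3a and Epha5 (r = 0.841 to 0.933), and those most like Cfb were F13a1, Nell2, Lrrc24, Or10am5 and Rnf126 (r = 0.928 to 0.985).

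Of 13 regulators, 10 were tested, Cfi and C4bpa being below the filter on signal and Cd59 having no probe of that name. The 10 include factor D (Cfd) and properdin (Cfp), which are not inhibitors. They stood -0.02 and 0.85 from healthy colon in n-6 colitis. In n-6 colitis against healthy colon 0 of 10 passed the adjusted test, against 0.0385% of genes, and 3 of 10 had an unadjusted limma p under 0.05, all higher, against 6.59% of genes called higher. The median difference of the 10 was 0.70, beside 1.02 for the 9 members. Cd55, the membrane protein that speeds decay of the C3-cleaving enzymes, had levels of 3.17 and 3.37 in ALA colitis, 2.88 and 3.10 in fish oil colitis, 3.87 and 3.87 in n-6 colitis, and 2.02 and 1.68 in healthy colon. By this probe the order of its groups, n-6 highest and healthy lowest with no overlap, is the order seen in C5ar1. A second Cd55 probe also had n-6 highest and healthy lowest, but placed fish oil colitis (mean 0.54) above ALA colitis (mean 0.42, SD 0.24 each). The order of the n-3 diet groups in Cd55 thus depended on the probe. Cd55 was 4.05-fold higher in n-6 colitis than in healthy colon (2.02, SE 0.29, limma adjusted p = 0.101), and 2.15 higher by its other probe. It stood -0.60 from n-6 colitis in ALA colitis and -0.88 in fish oil colitis (SE 0.29 each, limma adjusted p = 0.884 and adjusted p = 0.409). By the other probe these differences were -1.30 and -1.18 (SE 0.31 each, limma adjusted p = 0.803 and adjusted p = 0.405).

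Serping1, the C1 inhibitor that inactivates C1r and C1s, had levels of 4.70 and 4.17 in ALA colitis, 4.29 and 4.15 in fish oil colitis, 5.03 and 5.06 in n-6 colitis, and 3.93 and 3.80 in healthy colon. Every colitis array was above both healthy arrays and the n-6 arrays were highest. The n-6 difference from healthy colon was 1.18 (SE 0.31, limma adjusted p = 0.198). Clusterin (Clu), which binds the terminal complex, had levels of 3.19 and 4.35 in ALA colitis, 1.49 and 1.16 in fish oil colitis, 3.97 and 2.30 in n-6 colitis, and 1.20 and 1.22 in healthy colon. Fish oil colitis lay at the healthy level, and 1.81 below n-6 colitis (SE 0.61, limma adjusted p = 0.409), while ALA colitis overlapped with n-6 colitis.

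**Figure D4:**
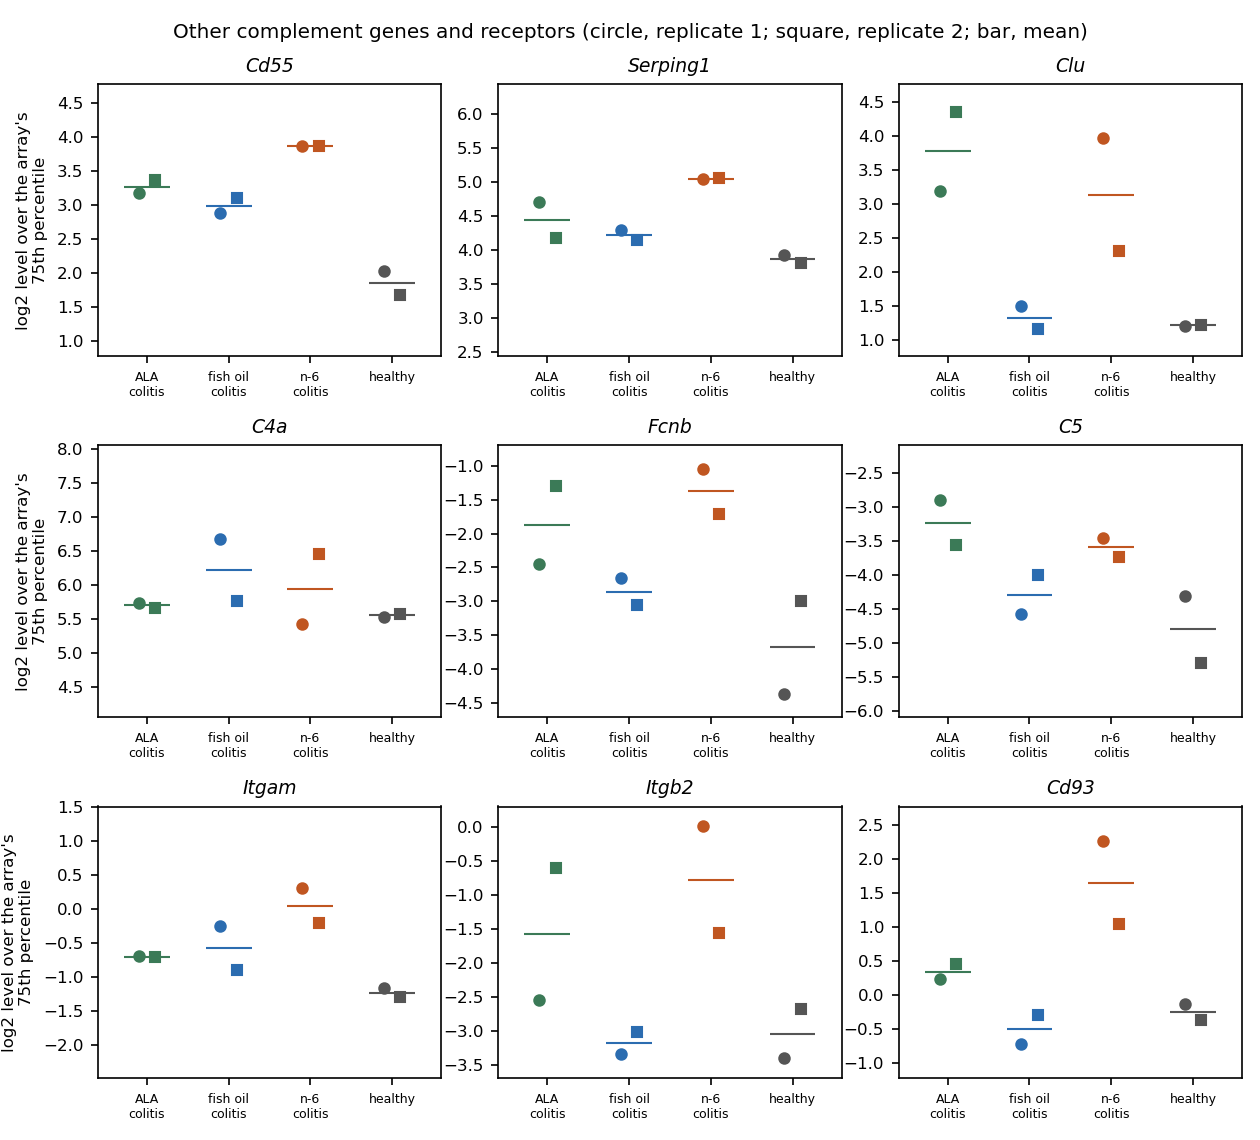
Level of 9 other complement genes and complement receptors on each array, as log2 signal over the array's 75th percentile, with replicate 1 as a circle, replicate 2 as a square and the mean as a bar; every panel spans 4 log2 units. Cd55 and Serping1 are highest on both n-6 arrays, Clu is near the healthy level in fish oil colitis, and C4a stands out on fish oil replicate 1 and n-6 replicate 2.

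Of 10 genes of C4 and the lectin pathway 5 were tested, and 2, both ficolins, had an unadjusted limma p under 0.05 in n-6 colitis against healthy colon, both higher, against 6.59% of genes called higher (0 adjusted). Fcnb, a ficolin of neutrophils and monocytes that starts the lectin pathway, had levels of -2.45 and -1.30 in ALA colitis, -2.66 and -3.05 in fish oil colitis, -1.04 and -1.71 in n-6 colitis, and -4.37 and -2.99 in healthy colon. It was 2.30 higher in n-6 colitis than in healthy colon (SE 0.58, limma adjusted p = 0.192). C4a, the partner of C2 and a gene of the same chromosome region in mammals, had levels of 5.75 and 5.66 in ALA colitis, 6.68 and 5.77 in fish oil colitis, 5.44 and 6.46 in n-6 colitis, and 5.54 and 5.58 in healthy colon. It was named after its values were seen, since its 2 high arrays are those of Cfb (r = 0.951 over 8 arrays). Of 7 terminal pathway genes 3 were tested. C5 was 1.20 higher in n-6 colitis than in healthy colon (SE 0.45, limma adjusted p = 0.3) at low signal, and was well above background on 1 of 2 fish oil arrays.

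Of 9 other receptors 5 were tested, and 3 had an unadjusted limma p under 0.05 in n-6 colitis against healthy colon, all higher, against 6.59% of genes called higher (0 adjusted). C3ar1 and C5ar2 were below the filter on signal. Itgam, the alpha chain of complement receptor 3, had levels of -0.69 and -0.71 in ALA colitis, -0.25 and -0.89 in fish oil colitis, 0.31 and -0.20 in n-6 colitis, and -1.17 and -1.29 in healthy colon. It was 1.28 higher in n-6 colitis than in healthy colon (SE 0.35, limma adjusted p = 0.205), and 1.85 higher by a second probe. That probe placed ALA colitis (mean -2.16) above fish oil colitis (mean -2.31), the reverse of the first. The order of the n-3 diet groups in Itgam thus depended on the probe. Cd93, a glycoprotein of endothelium and myeloid cells once described as a C1q receptor, had levels of 0.23 and 0.45 in ALA colitis, -0.72 and -0.30 in fish oil colitis, 2.26 and 1.04 in n-6 colitis, and -0.14 and -0.37 in healthy colon. The n-6 arrays stood above all others, by 1.31 over ALA colitis and 2.16 over fish oil colitis (SE 0.44 each, limma adjusted p = 0.836 and adjusted p = 0.408). Itgb2, the beta chain shared by complement receptors 3 and 4, was 2.27 higher in n-6 colitis than in healthy colon (limma adjusted p = 0.259).

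Markers of other cell types are given beside these levels; of their lists only the red cell genes had members that passed the adjusted test in n-6 colitis against healthy colon. The summed signal of the 9 macrophage markers tested, of 10 listed, in multiples of the 75th percentile, was 16.3 and 15.3 in ALA colitis, 21.2 and 14.5 in fish oil colitis, 20.2 and 25.9 in n-6 colitis, and 11.1 and 13.9 in healthy colon. Aif1 and Cd14 are the brightest of these and weigh most in the sum. Single markers went both ways between diets. Against n-6 colitis they ran from -1.36 (Cd163) to 0.42 (Csf1r) in ALA colitis, and from -1.61 (Cd68) to 0.96 (Adgre1) in fish oil colitis. For 6 neutrophil markers the sum was 5.54 and 11.3 in ALA colitis, 5.41 and 4.83 in fish oil colitis, 10.2 and 6.00 in n-6 colitis, and 4.39 and 4.17 in healthy colon. In n-6 colitis against healthy colon these 6 went from 0.691-fold (Fcgr3a) to 12.3-fold (S100a8). Ncf1, the brightest and so the most weighty in the sum, was at 1.68-fold. For 7 fibroblast markers the sum was 187 and 117 in n-6 colitis against 49.9 to 80.9 on the other 6 arrays. However, 2 of the 7, Dcn and Lum, were at 1.30-fold and 0.973-fold in n-6 colitis against healthy colon. For 3 red cell genes it was 189 and 134 in n-6 colitis against 5.31 to 11.4 on the others, and all 3 rose in n-6 colitis against healthy colon by the adjusted test. However, Alas2 met the signal filter through its n-6 arrays alone, its healthy signal being too dim to count as present. The size of its rise is therefore only bounded from below, at 46.4-fold. The sum of the 8 epithelial markers was lowest on n-6 replicate 1, at 153 against 290 to 601 on the other arrays. Single markers differed: Car1 alone went from 0.67 to 7.72 on the log2 scale over the 8 arrays. Slc26a3 was lowest on fish oil replicate 1 (1.25). In n-6 colitis against healthy colon the markers ran from -3.84 (Car1) to -0.03 (Cdh1). The sums of 4 endothelial markers (9.81 to 20.6 over the 8 arrays) and of 2 mast cell markers (0.127 to 0.313) overlapped between n-6 colitis and healthy colon. Of the 2 liver markers tested, Apoa1 was at 0.705-fold in n-6 colitis against healthy colon (limma adjusted p = 0.638). On the log2 scale Apoa1 stood -1.06 from healthy colon in ALA colitis and -0.76 in fish oil colitis. The dim Ttr was at 2.34-fold in n-6 colitis against healthy colon (limma adjusted p = 0.417). It was at 2.96-fold in ALA colitis (limma adjusted p = 0.738) and 2.55-fold in fish oil colitis (adjusted p = 0.994). The part of these cell types in the complement levels was not tested.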

How the data were processed

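Colon RNA was measured on 8 Agilent 1-colour arrays, 2 in each of 4 groups. The deposited scanner files hold spot intensity values that Feature Extraction 11.5.1.1 made, with background and within-array trends already removed, per the file headers. The deposited table of 26205 symbols is in log2 units, with column medians from -3.18 to -2.89 and 75th percentiles from 0.0032 to 0.00898; its way of joining probes is not stated in the labels or headers, and it served as an alternative. Control and outlier spots were left out and the spots of a probe averaged. The log2 intensity was set relative to each array's 75th percentile. Probes were kept where both arrays of 1 or more groups were well above background (20801 of 30367), and the brightest probe stood for a gene. Groups were compared with limma 3.58.1 in R 4.3.3 on all 8 arrays, with Benjamini-Hochberg adjustment over 18171 genes at 0.05. Array names were updated through RefSeq (GRCr8); 8618 probes had no match there and carry the name in the files.

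C1q was compared with C3 and Cfb by exact permutation over arrays. The text names all 9 members, of each other complement list up to 4 genes with the largest difference at an unadjusted p under 0.05 without overlap, and the 5 genes most like each of 3 patterns; 1 gene this rule names is not reported here. Members and lists were chosen with earlier results of these data known. Data were simulated for n-6 colitis against healthy colon (18163 genes), with few genes raised and independent normal noise. The fit found 0.8% of genes raised by 1 log2 unit, 25.5% of those raised by 2 and 72.3% of those raised by 4. It made 3.75 false calls a run on average. These shares depend on which genes the simulation raised, and are not detection rates for the real data. Alternatives were the background correction, scaling, filter, probe choice, value table, replicate block, arrays in the fit, prior and each array left out.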

Additional observations from a re-analysis of the deposited data

How the results depend on the processing

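Of the 9 members, 0 passed the adjusted test in every comparison under every alternative run. Only 2 arrays a group limit what can be called, and a lone remaining array is assumed to vary like the other groups. Normexp moved the median of all genes by up to 0.237 and median centring by up to 0.199 on the log2 scale. C1qa, C1r, C1s and C5ar1 kept their direction under all alternatives in the 4 comparisons examined (n-6 and all colitis groups with healthy colon, and each n-3 diet with n-6). The counts at an unadjusted p under 0.05, an alternative chosen after seeing the data, depended on the setting. For ALA against n-6 the count of 2 was 1 with normexp, quantile normalization, no filter, the deposited table, the replicate block and only the groups compared. For all colitis groups the count of 5 was 3 with quantile normalization, no filter and the deposited table. Leaving out 1 array gave counts of 1 to 2 for ALA against n-6, 1 to 2 for fish oil against n-6, 3 to 6 for n-6 against healthy and 2 to 6 for all colitis groups.

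Several values changed sign. The C1q minus Cfb change was -0.0791 in n-6 against healthy with normexp and 0.0418 in all colitis groups with quantile normalization. C1qc in ALA against n-6 was -0.053 with median centring. C2 was -0.00531 in fish oil against n-6 with normexp, -0.0692 and -0.0443 in n-6 and in all colitis groups against healthy with the mean of its probes, and -0.0479 and -0.0512 with the deposited table. With 1 array left out, the C1q minus C3 change ran from -1.1 to 0.0495 in ALA against n-6 and from -0.00649 to 0.416 in all colitis groups. The C1q minus Cfb change ran from -0.000336 to 1.57 in ALA against n-6, -0.702 to 0.871 in n-6 against healthy and -0.218 to 0.296 in all colitis groups. C2 ran from -0.927 to 0.296 in ALA against n-6, -0.48 to 0.743 in fish oil against n-6, -0.47 to 0.753 in n-6 and -0.452 to 0.612 in all colitis groups against healthy. C3 ran from -0.217 to 0.996 in ALA against n-6, from -0.15 to 1.06 in fish oil against n-6, and from -0.152 to 1.06 in n-6 against healthy colon. Cfb in fish oil against n-6 ran from -0.104 to 1.53. In ALA against n-6 C1qb ran from -0.501 to 0.0187 and C1qc from -0.0656 to 0.358, and in fish oil against n-6 C1qc ran from -0.278 to 0.073. The cause was not tested. The labels do not say what the replicate numbers share, and differences between same-numbered arrays correlated from -0.168 to 0.47 over the 6 pairs of groups; with the replicate block 0 members passed the adjusted test.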
